A study of Rattus norvegicus with 6 samples.

Results

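Atp12a encodes the catalytic subunit of the non-gastric proton-potassium pump, and it was measured here together with 6 other genes of P-type cation pumps: Atp4a and Atp4b, the catalytic and beta subunits of the gastric proton-potassium pump, Atp1b1 and Atp1b3, beta subunits of the sodium pump, and Fxyd2 and Fxyd4, small membrane proteins of the FXYD family that bind the sodium pump and tune it. The members were every probe, other than control spots, whose RefSeq accession maps to one of these 7 rat genes. Of the 7 genes, 6 had a probe, out of 15168 named genes with a probe on the array. Fxyd4 was matched by no probe through the RefSeq table used here and has no value. The genes were selected on their scaled log2 signals, Bailing Capsule against diabetic, with those values already known, so all their values in that comparison are a description, with no test.

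Kidney RNA came from 6 rats aged 21 weeks, 3 labelled diabetic and 3 labelled as treated with Bailing Capsule, a fermented Cordyceps preparation. The labels give no strain, sex or dose and no way in which diabetes was brought about. They do not say whether the treated rats were diabetic. RNA was extracted from total kidney tissue, labelled with Cy3 and hybridised to Agilent one-colour rat arrays, 1 array per sample. The replicates are labelled as separate samples and nothing says more about how they were taken, so any p-value measures the spread between these samples.

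P-type pumps are membrane proteins that split ATP, pass the phosphate through an aspartate of the pump itself and move ions against their gradient. The sodium pump exports sodium and takes up potassium across the basolateral membrane of tubule cells, and its gradient drives most renal transport. The proton-potassium pumps exchange a proton for potassium at the apical membrane; in the kidney they are known from intercalated and other cells of the collecting duct. A catalytic subunit of either pump needs a beta subunit to leave the endoplasmic reticulum.

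Values are log2 signals from which the 75th percentile of the same array was subtracted, so that 0 is the signal below which 75% of an array's probes lie. On each array a probe is called well above background if 50% or more of its spots passed the scanner software's own test. Arrays with the same scan date in the file headers were taken as a slide, which gave 2 slides. The 3 treated arrays shared slide 1 with diabetic replicate 1, while diabetic replicates 2 and 3 were on slide 2. Per array, 64.5% to 73.5% of probes passed this test, and no spot was saturated. The number of arrays limits the precision.

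The RefSeq tables list 2 start sites for Atp12a on chromosome 15 of assembly GRCr8. The 250 bases before each are shown because Atp12a is the member that differed between the groups, and because a single probe, designed to one of the gene's RefSeq transcripts, cannot separate transcripts from both starts. Capitals mark matches, on either strand, to the motifs searched.
Atp12a, upstream start, chr15:34558959-34559208, plus strand: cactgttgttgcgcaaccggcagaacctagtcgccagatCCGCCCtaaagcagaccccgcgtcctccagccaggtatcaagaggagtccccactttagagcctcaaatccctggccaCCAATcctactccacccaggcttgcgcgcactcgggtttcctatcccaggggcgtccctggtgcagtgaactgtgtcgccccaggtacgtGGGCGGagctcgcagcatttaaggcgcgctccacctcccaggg
Atp12a, downstream start, chr15:34559495-34559744, plus strand: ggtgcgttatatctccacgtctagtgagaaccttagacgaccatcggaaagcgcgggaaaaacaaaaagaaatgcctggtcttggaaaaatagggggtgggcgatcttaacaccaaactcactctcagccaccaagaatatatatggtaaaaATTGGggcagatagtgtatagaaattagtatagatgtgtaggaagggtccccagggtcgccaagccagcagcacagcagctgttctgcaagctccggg
The upstream window is 62.4% G and C and the downstream one 48.0%. The upstream window holds the GC box GGGCGG on each strand and the CCAAT box CCAAT once, and the downstream window holds the CCAAT box alone, on the minus strand. Among 33465 RefSeq windows of the same length, 30.5% hold the GC box and 34.0% the CCAAT box. Neither window holds TATAAA (12.9% of windows), the cyclic AMP response element TGACGTCA (1.59%), the palindromic steroid receptor element (0.374%) or the direct repeat bound by PPAR (0.0508%); this says only that these letters are not in these windows.

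Atp12a signal was far lower in Bailing Capsule kidneys than in diabetic kidneys, on every array and at every spot used. The scaled log2 signals were 0.40, 0.05 and 0.61 on diabetic arrays 1, 2 and 3. On Bailing Capsule arrays 1, 2 and 3 they were -4.80, -6.07 and -4.65. All 3 diabetic arrays lay above all 3 Bailing Capsule arrays, with a gap far wider than the range within either group. The group means were 0.35 ± 0.29 and -5.17 ± 0.78 (SD, n = 3), a log2 difference of -5.53 (SE 0.38, 95% interval -6.37 to -4.69) in limma. Since only 1 treated array had this probe well above background, no exact fold is given. The tissue was taken whole, so fewer cells that make the transcript and less transcript per cell cannot be told apart.

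The Atp12a probe was printed 10 times on each array, which gives the technical error within an array. In diabetic replicate 1 the 9 spots left after outliers were removed had signals of 347 to 376 intensity units, with a coefficient of variation of 2.84%. The 10 spots of diabetic replicate 2 ran from 215 to 246 (4.38%) and those of diabetic replicate 3 from 571 to 604 (1.92%). In Bailing Capsule replicates 1, 2 and 3 the spots ran from 6.14 to 12.2, from 2.84 to 8.34 and from 8.11 to 11.04, with coefficients of variation of 23.4%, 30.0% and 9.59%. The brightest spot of any Bailing Capsule array was thus dimmer than the dimmest diabetic spot, and the relative error was larger at the dim end.

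**Figure D1:**
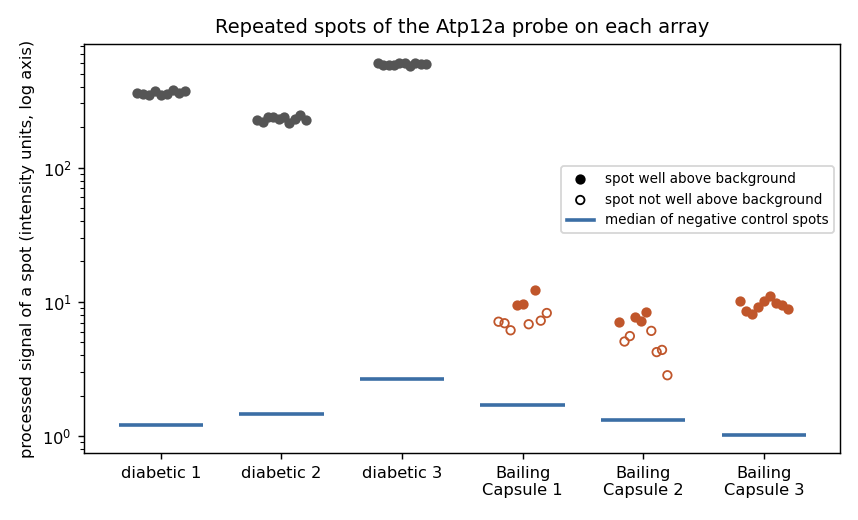
Processed signal of each spot of the Atp12a probe (intensity units, log axis) on the 3 diabetic arrays (grey) and the 3 Bailing Capsule arrays (orange), without outlier spots. Filled points are spots well above background, open points are not, and blue lines mark the median of the negative control spots of each array; diabetic spots lie between 215 and 604 and Bailing Capsule spots between 2.84 and 12.2.

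Atp12a did not vanish from the scanner's range in Bailing Capsule kidneys. All 9 used spots of Bailing Capsule replicate 3 were well above background, against 3 of 9 in replicate 1 and 4 of 10 in replicate 2. The median spot brightness before background subtraction was 34, 25.25 and 27 in Bailing Capsule replicates 1, 2 and 3. The 153 negative control spots of the same arrays had medians of 22, 17 and 16, and 95th percentiles of 27, 20 and 18. The Atp12a spots were therefore brighter, by their median, than the 95th percentile of the negative controls on all 3 arrays, although the probe counted as well above background on 1 of them. In diabetic replicates 1, 2 and 3 the brightness was 374.5, 236 and 604.5, against medians of 17, 23 and 21 for the negative controls.

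The difference was as large within slide 1. Diabetic replicate 1, on the same slide as all the treated arrays, had 0.40, between the other 2 diabetic values. With slide as a block, where the difference equals that within slide 1 and rests on this 1 diabetic array, it was -5.57 (SE 0.54). When each array was left out in turn it ran from -5.79 to -5.08, and in the authors' deposited log2 values, analysed in the same way, it was -5.18. It was -2.58 after normexp background correction, which adds an offset of 50 intensity units to each signal, more than the whole Atp12a signal of the treated arrays.

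The gastric proton-potassium pump subunits had overlapping groups. For Atp4a, whose protein is the catalytic subunit of the acid pump of the stomach, the brighter of 2 probes gave -2.71, -1.83 and -2.28 on diabetic arrays and -1.93, -3.27 and -2.88 on Bailing Capsule arrays. The groups overlap, since the second highest value of all belongs to Bailing Capsule replicate 1, and the difference was -0.42 (SE 0.37, 95% interval -1.25 to 0.41). The dimmer Atp4a probe was not well above background on any of the 6 arrays, with values from -7.15 to -5.16, and was not tested.

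Atp4b, the beta subunit that pairs with Atp4a and can also pair with the Atp12a protein, was well above background on all 6 arrays. Its values were -4.71, -3.62 and -3.83 on diabetic arrays and -4.58, -5.08 and -5.11 on Bailing Capsule arrays. Diabetic replicate 1 lay among the treated arrays, so the groups overlap. The difference was -0.87 (SE 0.33, 95% interval -1.60 to -0.14), and -0.22 (SE 0.39) with slide as a block; diabetic replicates 2 and 3, the higher arrays, are those of slide 2, and the part of slide in this difference was not tested.

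Atp1b1 encodes the main beta subunit of the renal sodium pump, which can also assemble with the Atp12a protein. Its values were 6.68, 7.65 and 6.84 on diabetic arrays and 7.47, 6.33 and 6.73 on Bailing Capsule arrays. Diabetic replicate 2 and Bailing Capsule replicate 1 were high and the groups overlap throughout. The difference was -0.21 (SE 0.36, 95% interval -1.02 to 0.59), and its sign changed with the scaling, to 0.12 under quantile scaling.

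Atp1b3, the other sodium pump beta subunit of the kidney, is the second member printed 10 times per array. Its values were 3.29, 3.58 and 3.21 on diabetic arrays and 3.54, 2.67 and 3.24 on Bailing Capsule arrays, where replicate 2 was the lowest of the 6. The spots of one array varied by 2.38% to 4.43% (coefficient of variation). The difference was -0.21 (SE 0.29, 95% interval -0.85 to 0.43) with overlapping groups. In log2 units spots of 1 array had an SD of 0.03 to 0.06. Scaled values had an SD of 0.20 between diabetic and 0.44 between Bailing Capsule arrays. That spread includes the scaling of each array, since the unscaled signals were 2678, 2667 and 3566 on diabetic and 2605, 2382 and 2233 on Bailing Capsule arrays.

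Fxyd2, the gamma subunit of the sodium pump, lowers the pump's affinity for sodium and is abundant along the nephron. Its brighter probe had 4.15, 4.90 and 4.33 on diabetic arrays and 4.51, 4.90 and 4.57 on Bailing Capsule arrays, a difference of 0.20 (SE 0.28, 95% interval -0.43 to 0.82). The dimmer Fxyd2 probe had means of 2.62 ± 0.26 and 2.58 ± 0.08 (SD, n = 3), a difference of -0.04. The groups overlap for both probes.

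**Figure D2:**
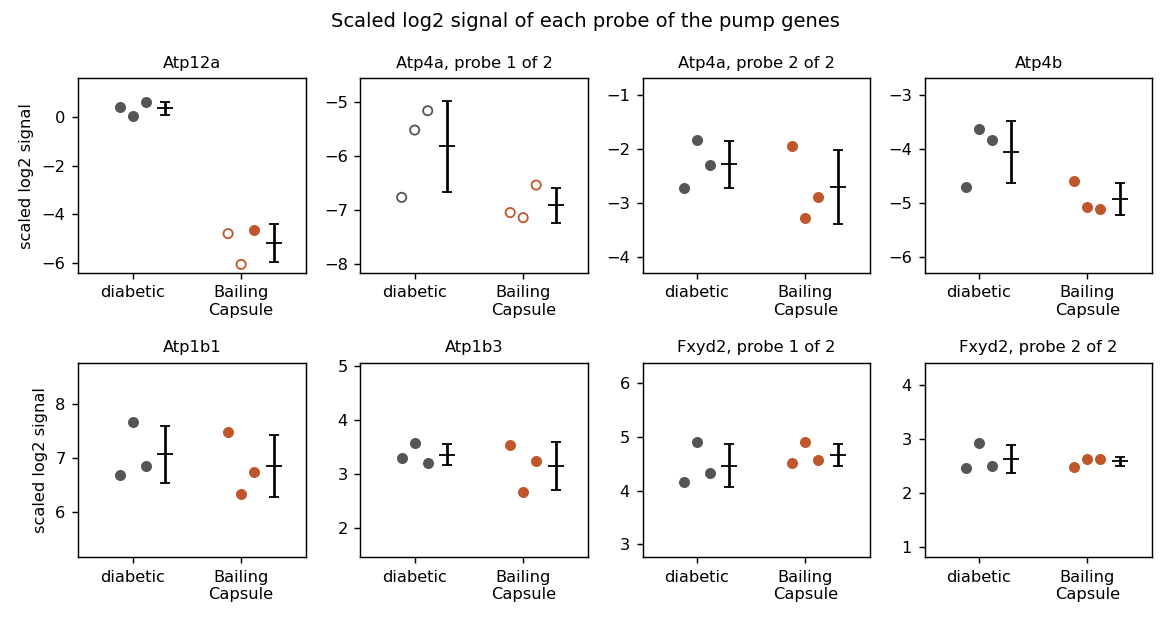
Scaled log2 signal of the 8 probes of the 6 measured pump genes, by group; points are single arrays (open where the probe was not well above background) and black bars give the mean and SD of 3 arrays. Panel axes differ in range; groups are apart for Atp12a alone, whose arrays lie between 0.05 and 0.61 and between -6.07 and -4.65.

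Across the whole array, 57 of 17892 features (0.319%) had an adjusted p under 0.05 in limma after Benjamini-Hochberg adjustment, 23 of them higher (0.129% of all features) and 34 lower (0.19%). In the deposited values 25 were higher and 21 lower. Of the 6 members tested 1 was called, Atp12a, as lower. Groups did not overlap for 1 of the 6 tested members, against 11.6% of all features. Since the members were chosen with this contrast known, nothing is read from these counts.

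The other pump genes, from a list drawn up across the P-type family, showed no called difference. Over all features 0.319% were called, so 0 is likely in a list this short. The same holds for each list below, and nothing is read from a count of 0. The list holds 45 genes besides the members, 34 of them with a probe and 24 tested, of which 0 were called, and 0 had an unadjusted p under 0.05. With trend and robust variance 0 were called and 1 had an unadjusted p under 0.05. Of the 24, 15 had negative and 9 positive values, beside 11113 negative and 6779 positive over all 17892 features. The median log2 difference was -0.05, beside -0.09 over all features. With slide as a block both medians turned positive, to 0.11 and 0.09. The lowest adjusted p in limma was 0.682, for Fxyd6.

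Of the 8 sodium pump subunits listed, Atp1b1 and Atp1b3 included, 6 were tested and 0 were called. Of the beta subunits, Atp1b2, the adhesion molecule on glia, had 0.39 (SE 0.36), with 1 array lacking a value, diabetic replicate 2, dropped from the fit. Atp1a4 and Atp1b4 were well above background on 0 arrays.

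Of the FXYD regulators 5 of 7 were tested and 0 called. Fxyd6, which binds the sodium pump in nervous tissue and inner ear, had 0.56 (SE 0.26), from 2.63, 2.96 and 3.05 to 3.18, 3.50 and 3.63. Its groups did not overlap, as was so for 11.6% of all features. A further probe of Fxyd6 gave -0.44, so its probes disagree. Fxyd3, known from stomach and colon, had 0.43 (SE 0.27) and -0.17 on a further probe. Fxyd7, a brain form, had -0.35 (SE 0.25), and Fxyd5, also called dysadherin, 0.12 (SE 0.28). Fxyd1, phospholemman, was well above background on 4 arrays but on all 3 of neither group and was not tested.

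Calcium pumps move calcium out of the cytosol into the endoplasmic reticulum, the Golgi or the extracellular space. Of 9 genes 7 were tested, 0 were called and the median was -0.11. Atp2a3, a pump of the endoplasmic reticulum, had -0.52 (SE 0.30). The plasma membrane pumps Atp2b2 and Atp2b3 had -0.45 (SE 0.28) and 0.36 (SE 0.29). Atp2b1 and Atp2b4, the plasma membrane pumps best known from kidney, had -0.11 (SE 0.30) and 0.44 (SE 0.37). A further probe of Atp2b1 gave 0.22 and a further probe of Atp2b4 -0.64, each opposite in sign. The groups overlap for the brighter Atp2b1 probe, at 3.57 to 4.11 on diabetic and 3.23 to 4.14 on Bailing Capsule arrays.

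The copper pump Atp7a, mutated in Menkes disease, varied most between arrays of 1 group. Its values were -4.85, -1.34 and -1.88 on diabetic arrays and -1.19, -4.65 and -4.20 on Bailing Capsule arrays, a difference of -0.66 (SE 0.99). Each group held both high and low arrays. Atp7b, the copper pump of Wilson disease, had -0.28 (SE 0.44), and Atox1, which hands copper to both, -0.37 (SE 0.29), also without a value in diabetic replicate 2. The Atox1 groups did not overlap on the arrays with a value, as was so for 11.6% of all features. With an array missing, groups fall apart more easily. Of the P5 pumps, Atp13a1, of the endoplasmic reticulum, had -0.15, and Atp13a2 and Atp13a3, of endosomes and lysosomes, had 0.06 and -0.0019. Of the lipid flippases, which move phospholipids rather than cations, Atp11a had -0.08, and the flippase partners Tmem30a and Tmem30b had -0.14 and 0.12. Atp13a4 and Atp13a5 were well above background on 0 arrays, and 11 of the 17 flippase genes listed had no matched probe.

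**Figure D3:**
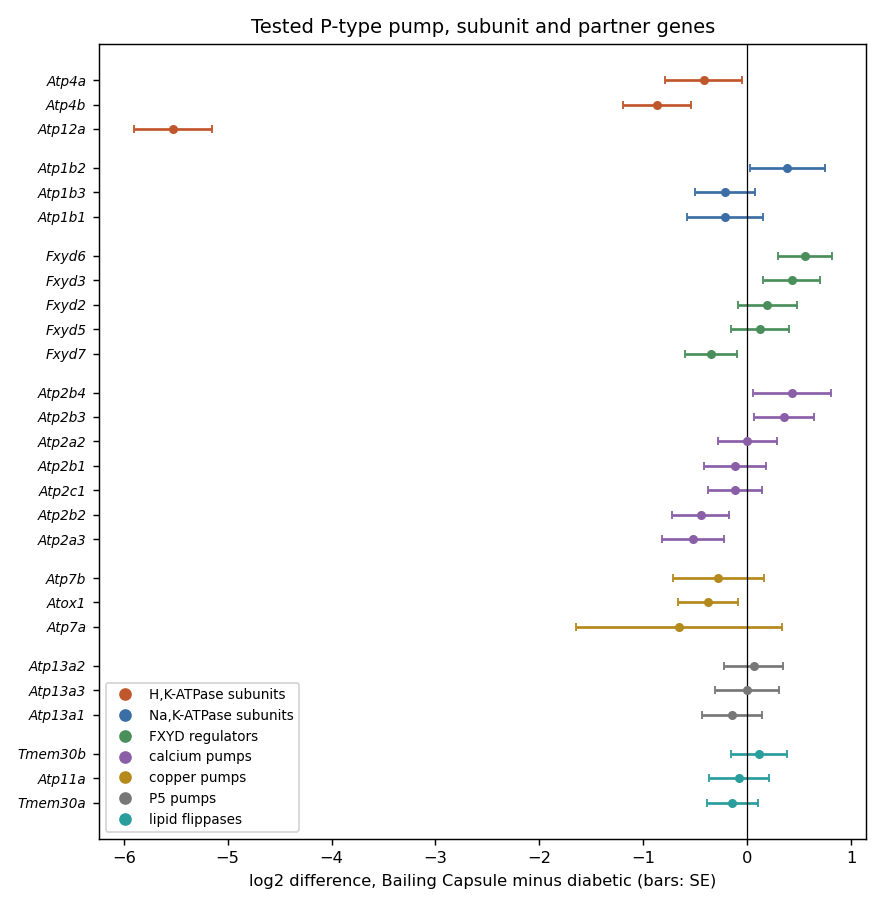
Log2 difference, Bailing Capsule minus diabetic, with its SE for tested pump, subunit and partner genes (3 are not shown), coloured by family and sorted by value within each family. Atp12a lies at -5.53; the other genes lie between -0.87 and 0.56.

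Genes of potassium and mineralocorticoid handling, the setting in which Atp12a is best known in the collecting duct, showed 0 called differences among 12 tested of 18 listed. The corticosterone-inactivating enzyme gene Hsd11b2, which guards the mineralocorticoid receptor, had 0.50 (SE 0.27), from 2.34, 3.09 and 2.63 to 3.24, 3.30 and 3.04. Kcnj1, the apical potassium channel ROMK, had 0.35 (SE 0.31). The mineralocorticoid receptor gene Nr3c2 had 0.12 (SE 0.28) and the aldosterone-induced kinase gene Sgk1 0.48 (SE 0.44). The last 2 were named after their values were seen. Pgr, the progesterone receptor, was well above background on 0 arrays.

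Of the markers of collecting duct cells 0 were called lower, beside 0.19% of all features. At that share 0 is likely in lists this short, so the count says little about these cells. All 11 principal cell markers were well above background on all 6 arrays, and their summed level, on the scaled log2 scale, was 6.88 to 7.45 on diabetic and 6.50 to 7.10 on Bailing Capsule arrays. A summed level is the log2 of the summed unlogged signals, so the brightest genes of a list weigh most in it. Set against the diabetic mean, their array medians ran from -0.24 to 0.35 and from -0.04 to 0.27, and 0 of the 11 were called. Aqp3, a basolateral water channel, had -0.84 (SE 0.26), the transcription factor gene Elf5 0.75 (SE 0.30) and Hsd11b2 0.50. Of 15 tested intercalated cell markers 14 had positive values, beside 6779 of all 17892 features, and the median was 0.58. One was called, Slc26a4, the chloride-bicarbonate exchanger pendrin, at 1.68 (SE 0.28, adjusted p = 0.0457 in limma) and 1.87, not called, with slide as a block. Its value was positive under all 17 alternatives and was called in 6 and not in 11 of them, with adjusted p in limma from 0.0103 to 0.398. Proton pump subunit Atp6v1c2 and transcription factor Hmx2 had 1.29 (SE 0.26) and 1.31 (SE 0.33). The summed level of the intercalated cell markers was 5.37 to 6.08 and 5.85 to 6.50.

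Other compartments were set beside Atp12a in the same way. Of 7 tested thick limb and distal convoluted tubule markers 0 were called, with a median of 0.30, among them Ppp1r1b at 0.71, Egf at 0.82 and Slc12a3 at 0.49. Of 12 proximal tubule markers 0 were called and 10 were negative, beside 11113 of all 17892 features. The median of the proximal tubule markers was -0.29 and turned to 0.04 with slide as a block. Slc5a12, a lactate transporter, had -1.03, Slc22a8 -0.43 and Slc22a6 -0.37. Of 7 tested inner medulla and papilla markers 0 were called, with a median of 0.17, the taurine transporter gene Slc6a6 at -0.63, Cryab at 0.50 and Akr1b1 at 0.49. Their summed levels were 5.07 to 5.60 on diabetic and 5.35 to 5.72 on Bailing Capsule arrays.

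Tissues outside the nephron were also checked. Of 6 tested urothelium markers 0 were called, and Upk1b, Krt5 and Upk2 had 1.499, -0.49 and 1.04; Bailing Capsule replicate 1 stood apart, at -0.61 for Upk1b and -0.58 for Upk2 against -2.74 or less on every other array. Of 8 tested gastric and colon markers 0 were called, with a median of -0.30 that turned to 0.03 with slide as a block. Atp4b, Tff1 and Aqp8 had -0.87, -0.58 and -0.75. Atp4a and Atp4b, among the 8, are also members chosen with this contrast known, so this list is not separate from them. Cblif, the gastric intrinsic factor, and Slc26a3, the colonic chloride exchanger, were well above background on 0 arrays. The 7 tested liver markers were all negative, with a median of -1.13 and array medians of -1.47 to -0.90 against -0.20 to 0.24, led by Fgb at -1.74, Fga at -1.20 and Alb at -1.37, with 0 called. Their summed level was 4.47 to 5.69 and 4.09 to 5.33, set mostly by 1 bright gene. The liver genes Apoa1 and Ahsg were well above background on 0 arrays. The 5 tested blood markers were all positive, with a median of 0.69 and summed levels of 7.03 to 7.60 and 7.18 to 8.20; Alas2 had 1.04, Pf4 0.83 and Hbb-b1 0.69, with 0 called. The part of these shifts in the Atp12a difference was not tested. Over all 17892 features 11113 were negative and 6779 positive.

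**Figure D4:**
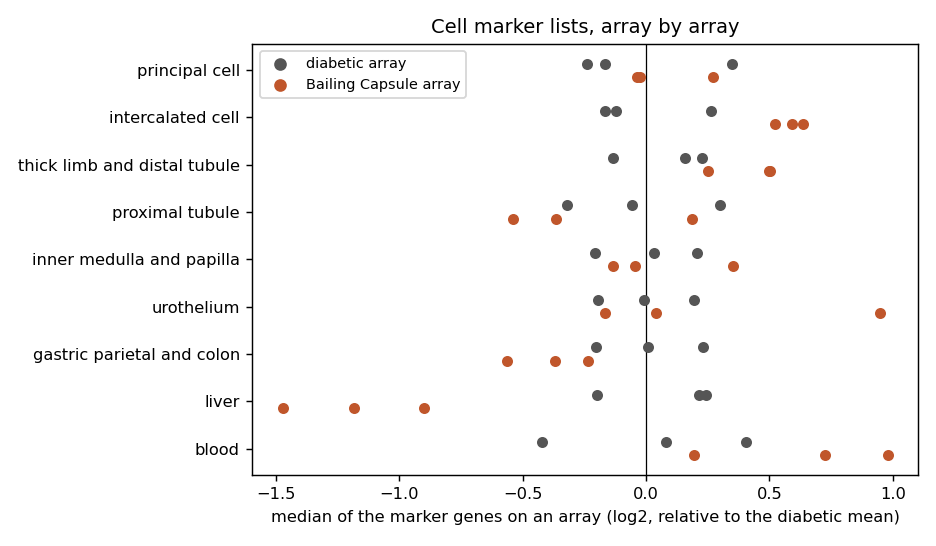
Median of the tested marker genes of each cell type or tissue on each array (log2, relative to the diabetic mean), for diabetic arrays (grey) and Bailing Capsule arrays (orange). Principal cell medians overlap between the groups, intercalated cell medians lie at 0.52 to 0.64 on treated arrays and -0.17 to 0.26 on diabetic ones, and liver medians lie at -1.47 to -0.90 on treated arrays.

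Across the 6 arrays the named genes with values most like those of Atp12a, out of 10401 compared, were Mgmt (Pearson r = 0.99997), Satb1 (0.991), Nop16 (0.990), Scrg1 (0.988) and Itgb2 (0.987). Their log2 differences were -1.32, -1.08, -0.51, -3.82 and -0.86, smaller in size than that of Atp12a. On Bailing Capsule arrays 1, 2 and 3 Scrg1 had -7.23, -8.19 and -6.82. The lowest scaled signals well above background there were -4.95, -6.09 and -5.95, so the values of Scrg1 rest on signals near background. Mgmt, which encodes the repair enzyme for alkylated guanine, had 2.18, 2.08 and 2.23 on diabetic arrays and 0.93, 0.62 and 0.97 on Bailing Capsule arrays, and so kept the order of the arrays seen for Atp12a. The genes most opposite were Hspbap1 (-0.992), Lect2 (-0.992) and Strn (-0.985). These 6 points fall in 2 separate groups and share their arrays and scaling, so the values describe likeness only. Atp4b had a Pearson r of 0.754 with Atp12a, Atp4a 0.465, Atp1b3 0.448, Atp1b1 0.277 and Fxyd2 -0.460.

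**Figure D5:**
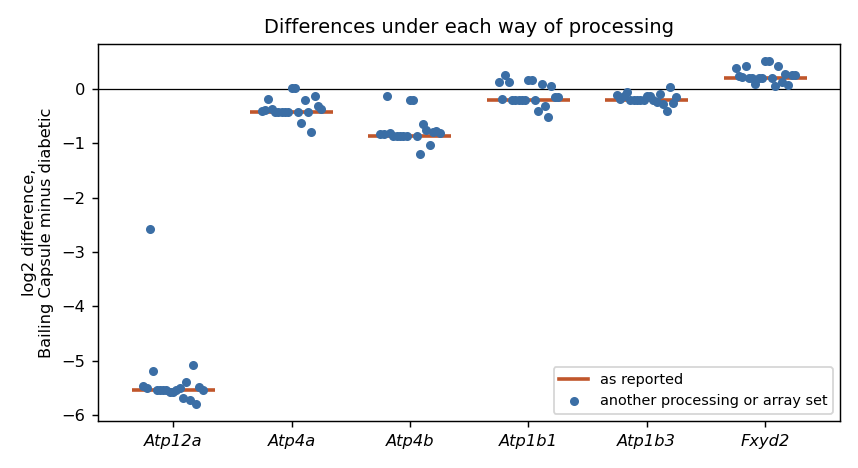
Log2 difference, Bailing Capsule minus diabetic, of the 6 measured pump genes as reported (orange line) and under each alternative processing or set of arrays (blue points). For Atp12a all points lie between -5.79 and -5.08 except the one at -2.58, from normexp; for Atp4a, Atp1b1 and Atp1b3 points fall on both sides of 0.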

How the data were processed

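Kidney RNA of 3 diabetic and 3 Bailing Capsule rats was measured on Agilent one-colour arrays. Per the file headers, the authors' intensity values came from Agilent Feature Extraction 11.0.1.1, which subtracted background and detrended each array, and did not scale arrays to each other. A deposited table also holds log2 values, with near-equal column medians (5.05 to 5.06); its making is not given in the sources used here. It served as an alternative.

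Outlier spots (597 to 1091 per array) and 1377 control spots were left out, spots of a probe averaged, and each array's 75th percentile of log2 signal subtracted. Probes were named through RefSeq accessions of assembly GRCr8: 18005 of 30367 matched 1 gene, 12362 none. The array annotation names an older build. A probe was kept where well above background on all 3 arrays of a group, and the brightest kept probe stood for a gene. limma 3.58.1 in R 4.3.3 (lmFit, eBayes) tested 17892 features, and the fit was tried on simulated data. Named genes were the members, called or lowest-p members of each list (up to 3), and genes most like Atp12a across arrays; others are marked or serve as family examples. The members and lists were chosen with earlier results of these data known. Normexp used the median spot signal. Alternatives covered scaling, background, filters, probes, variance model, blocks and leaving out arrays. Some listed genes are not reported by name here; the counts and medians of their lists include them.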

Additional observations from a re-analysis of the deposited data

How the results depend on the processing

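The log2 difference of Atp12a was negative under all 19 alternatives, which is a description, since the gene was chosen on this contrast; it was -2.58 with normexp, whose offset of 50 exceeds the treated arrays' signal, and could not be fitted with a filter on all 6 arrays, which removes it. It was -5.48 with outlier spots kept. Raising dim arrays to the lowest signal well above background changed no array, so it shows nothing about stability. Both were chosen after seeing the data. Atp4b ran from -1.20 to -0.14, Atp4a from -0.80 to 0.01, Atp1b1 from -0.53 to 0.25, Atp1b3 from -0.41 to 0.03 and Fxyd2 from 0.04 to 0.51. The 57 called features became 12 with normexp, 6 with no filter (26825 features tested), 9 using slide 1 alone, and from 17 to 326 on leaving out single arrays: 326 and 17 without diabetic replicates 1 and 2, 23 without diabetic replicate 3, and 122, 28 and 25 without Bailing Capsule replicates 1, 2 and 3. Beyond fewer arrays and more features, the cause was not tested. Among the other pump genes 0 were called under each alternative but 1, without diabetic replicate 1, where 1 was called; the leave-one-out range is 0 to 1. A replicate block on the labels' numbers left 6 called features. Same-numbered arrays correlated at -0.181, -0.14 and 0.0194 after group means were removed. Arrays with different numbers were not compared, so this cannot tell whether the numbers pair the arrays. Signals near background limit the size of the Atp12a fold, and 3 arrays per group limit every interval.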
